A study of Mus musculus with 9 samples.

Results

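The 10 genes described here are Trp53, which encodes the transcription factor p53, and 9 genes that p53 switches on. They were taken by symbol from a table of 55359 Ensembl genes counted in whole mouse kidney, and all 10 were found and passed the filter on low counts that left 17179 genes to test. There were 9 libraries of messenger RNA, 3 per group. HFD-STZ DHZ mice were put on a high-fat diet (49.0% of calories from fat) at 6 weeks of age, were given 2 injections of streptozotocin (30 mg/kg, days 60 and 63 of the diet), were tested for high blood glucose on day 65 and then took dehydrozingerone (DHZ, 50 mg/kg by mouth) for 2 weeks. HFD-STZ vehicle mice had the same diet and streptozotocin without the compound. NCD vehicle mice had a control diet (11.32% of calories from fat) and no streptozotocin. Streptozotocin is a DNA-alkylating sugar analogue that kills insulin-making beta cells, and both HFD-STZ groups received it. The labels give neither strain nor sex, and they do not say that each library is a separate animal, so p-values measure the spread between these samples only.

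p53 is kept at a low level in unstressed cells by Mdm2, a ubiquitin ligase that marks it for breakdown. DNA damage and other stresses free p53 from Mdm2 mainly at the protein level, so p53 activity is usually read from its targets and less from Trp53 messenger RNA. The targets arrest the cell cycle, feed back on p53, promote cell death or alter metabolism, and in the kidney they are known from acute injury, where tubule cells carry much of the response. In a whole-tissue library fewer cells of a type and less RNA per cell cannot be told apart.

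Total counts ran from 15.1 to 47.5 M (M, mega), but mitochondrial genes took 39.2% to 60.4% of them and nuclear protein-coding genes were left with 2.13 to 15.2 M. HFD-STZ vehicle replicate 2 stood apart, with the highest mitochondrial share and the fewest coding counts. Transcripts of the Y chromosome summed to over 1 CPM in HFD-STZ DHZ replicate 3, HFD-STZ vehicle replicates 2 and 3 and NCD vehicle replicate 1. Each library has a batch date of its own in the labels, and batch therefore cannot be told apart from group. Markers of kidney segments (Lrp2, Slc34a1, Umod, Slc12a1, Slc12a3, Aqp2 and Nphs1) summed to 1871 to 3234 CPM in HFD-STZ DHZ, 1995 to 2790 in HFD-STZ vehicle and 1927 to 2389 in NCD vehicle. Single segments differed more than the sum. Umod, of the thick ascending limb, had 493.4 to 1168 CPM in HFD-STZ DHZ, 261.8 to 404.5 in HFD-STZ vehicle and 100.04 to 438.7 in NCD vehicle (log2 fold change of HFD-STZ DHZ against NCD vehicle 1.48, adjusted p = 0.070). Slc12a1, of the same segment, did not follow Umod, and its groups overlapped. It had 430.7 to 867.5 CPM in HFD-STZ DHZ, 334.5 to 1232 in HFD-STZ vehicle and 387.0 to 637.3 in NCD vehicle (0.41, adjusted p = 0.56). Nphs1, of podocytes, had 3.49 to 5.04 CPM in HFD-STZ DHZ, 2.70 to 10.1 in HFD-STZ vehicle and 10.2 to 11.2 in NCD vehicle, and it fell against NCD vehicle (−1.24, adjusted p = 0.037). CPM is a gene's count relative to its library's size, after TMM scaling of the sizes between libraries. Leukocyte markers (Ptprc, Cd3e, Cd79a, Adgre1 and Csf1r) summed to 19.0 to 23.6 CPM in HFD-STZ DHZ, 19.8 to 38.9 in HFD-STZ vehicle and 27.7 to 43.2 in NCD vehicle. Most of this sum was Csf1r, except in HFD-STZ DHZ replicate 3, with 7.88 CPM of Csf1r and 13.5 of Ptprc. Against NCD vehicle 2 of these 5 were called in HFD-STZ DHZ, with Ptprc higher (log2 fold change 1.52, adjusted p = 0.016) and Csf1r lower (−1.64, adjusted p = 0.012). Adgre1 (1.14, adjusted p = 0.17) and Cd3e (0.78, adjusted p = 0.28) were not called, and Cd79a was not tested. Fat markers (Adipoq, Cfd, Plin1, Cidec and Fabp4) summed to 25.1 to 84.0 CPM in HFD-STZ DHZ, 10.3 to 22.4 in HFD-STZ vehicle and 15.02 to 71.2 in NCD vehicle, most of it Fabp4. Adipoq had 4.41, 0 and 2.65 CPM in HFD-STZ DHZ replicates 1 to 3, 0.108, 0 and 0.0803 in HFD-STZ vehicle and 0.0535, 0.166 and 1.84 in NCD vehicle. Proliferation markers (Mki67, Top2a, Cdk1 and Ccnb1) summed to 4.50 to 28.0 CPM in HFD-STZ DHZ, highest in replicate 3, to 2.98 to 4.69 in HFD-STZ vehicle and to 1.95 to 2.83 in NCD vehicle. Mki67 was called higher in HFD-STZ DHZ against NCD vehicle (2.57, adjusted p = 0.036) and against HFD-STZ vehicle (2.46, adjusted p = 0.034). Top2a and Cdk1 were called in neither comparison, and Ccnb1 was not tested. Adrenal markers (Cyp11a1, Cyp11b1, Star and Hsd3b1) stayed at or under 1.497 CPM in sum, with Cyp11b1 at 0 in 8 of 9 libraries, and liver markers (Alb, Apoa1, Ahsg and Ttr) summed to 8.72 to 102.1 CPM, most of it Ttr. The part of these cell types in the results was not tested.

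p53 binds DNA as a tetramer at paired copies of a 10-base unit, the p53 decamer. RefSeq start-site windows (GRCm38.p6, 250 bases before to 50 bases after a gene's start) matched 9 of the 10 genes, with 10 windows in all, since Cdkn1a has a pair of starts 2790 bases apart. Trp53inp1 had no entry. The perfect decamer consensus, searched on both strands, was present in 5 of these windows, which belong to Cdkn1a, Ccng1, Mdm2, Bax and Trp53, and in 8.36% of all 32851 windows. A perfect pair with at most 13 bases between the decamers was found in the window of the upstream Cdkn1a start, with 12 bases between them, and in 0.0731% of all windows. Windows of Eda2r, Phlda3, Sesn2, Fas and the downstream Cdkn1a start had no match, which says only that these letters are not in these windows. The 4 windows below are shown because 3 belong to genes that rose in HFD-STZ DHZ kidneys (Cdkn1a, Ccng1 and Mdm2), while Bax holds the same decamer consensus and did not pass the test. Capitals mark the perfect decamers, and all are written along the gene's strand. In the Cdkn1a window the 10 bases tgacatgttc directly follow GAACATGTCT. They differ from the consensus in their first base only, so the search for perfect decamers left them unmarked.
Cdkn1a, upstream start, chr17:29090729-29091028, plus strand: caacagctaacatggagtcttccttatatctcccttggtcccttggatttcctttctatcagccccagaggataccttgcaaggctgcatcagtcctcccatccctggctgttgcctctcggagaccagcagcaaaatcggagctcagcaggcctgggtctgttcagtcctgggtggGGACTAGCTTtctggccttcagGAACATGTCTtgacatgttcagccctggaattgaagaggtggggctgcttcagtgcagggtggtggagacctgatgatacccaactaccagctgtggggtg
Ccng1, chr11:40755237-40755536, minus strand: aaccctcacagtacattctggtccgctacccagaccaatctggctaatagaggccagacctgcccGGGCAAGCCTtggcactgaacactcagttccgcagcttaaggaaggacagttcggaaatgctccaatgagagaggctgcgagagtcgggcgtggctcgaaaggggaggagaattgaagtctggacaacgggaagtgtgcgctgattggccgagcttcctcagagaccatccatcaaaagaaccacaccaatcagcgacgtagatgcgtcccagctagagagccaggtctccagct
Mdm2, chr10:117710709-117711008, minus strand: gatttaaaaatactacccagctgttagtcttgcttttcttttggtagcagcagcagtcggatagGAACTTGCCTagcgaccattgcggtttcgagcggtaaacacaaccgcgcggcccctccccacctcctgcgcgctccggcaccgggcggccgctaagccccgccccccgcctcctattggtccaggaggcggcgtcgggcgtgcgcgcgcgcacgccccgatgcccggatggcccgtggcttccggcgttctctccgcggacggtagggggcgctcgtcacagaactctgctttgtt
Bax, chr7:45466849-45467148, minus strand: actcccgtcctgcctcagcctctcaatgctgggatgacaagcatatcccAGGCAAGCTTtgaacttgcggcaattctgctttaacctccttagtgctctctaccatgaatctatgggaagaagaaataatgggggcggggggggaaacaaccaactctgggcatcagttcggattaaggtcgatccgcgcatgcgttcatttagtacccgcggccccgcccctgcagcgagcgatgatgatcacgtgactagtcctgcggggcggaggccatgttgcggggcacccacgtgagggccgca
The decamer in the Ccng1 window began 185 bases before the start, that of Mdm2 186 bases and that of Bax 201 bases before it, and the first decamer of Cdkn1a began 73 bases before the upstream start. CCAAT, searched on both strands, was found 4 times in the Ccng1 window and in 37.4% of all windows at least once. GGGCGG, searched on both strands, was found 3 times in the Bax window, 2 times in that of Mdm2 and in 35.7% of all windows at least once.

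The treated diabetic kidneys were first set against healthy ones. In HFD-STZ DHZ, 5 of the 10 genes rose relative to NCD vehicle, where 6.31% of all tested genes were called higher and 13.7% were called in either direction. Those that rose were the cell cycle genes Ccng1 and Cdkn1a, the p53 inhibitor Mdm2, the stress protein gene Trp53inp1 and the receptor gene Eda2r, by 1.99- to 4.52-fold. Trp53 itself, the death genes Bax and Fas, and Sesn2 did not pass the test, nor did Phlda3. In 7 of 10 genes every HFD-STZ DHZ library lay above every NCD vehicle library, against 22.4% of all tested genes. The median log2 fold change of the 10 was 1.35, against 0.01 over all tested genes. The 10 were chosen with earlier results of these data known, so these contrasts with all genes, here and below, are a description.

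**Figure D1:**
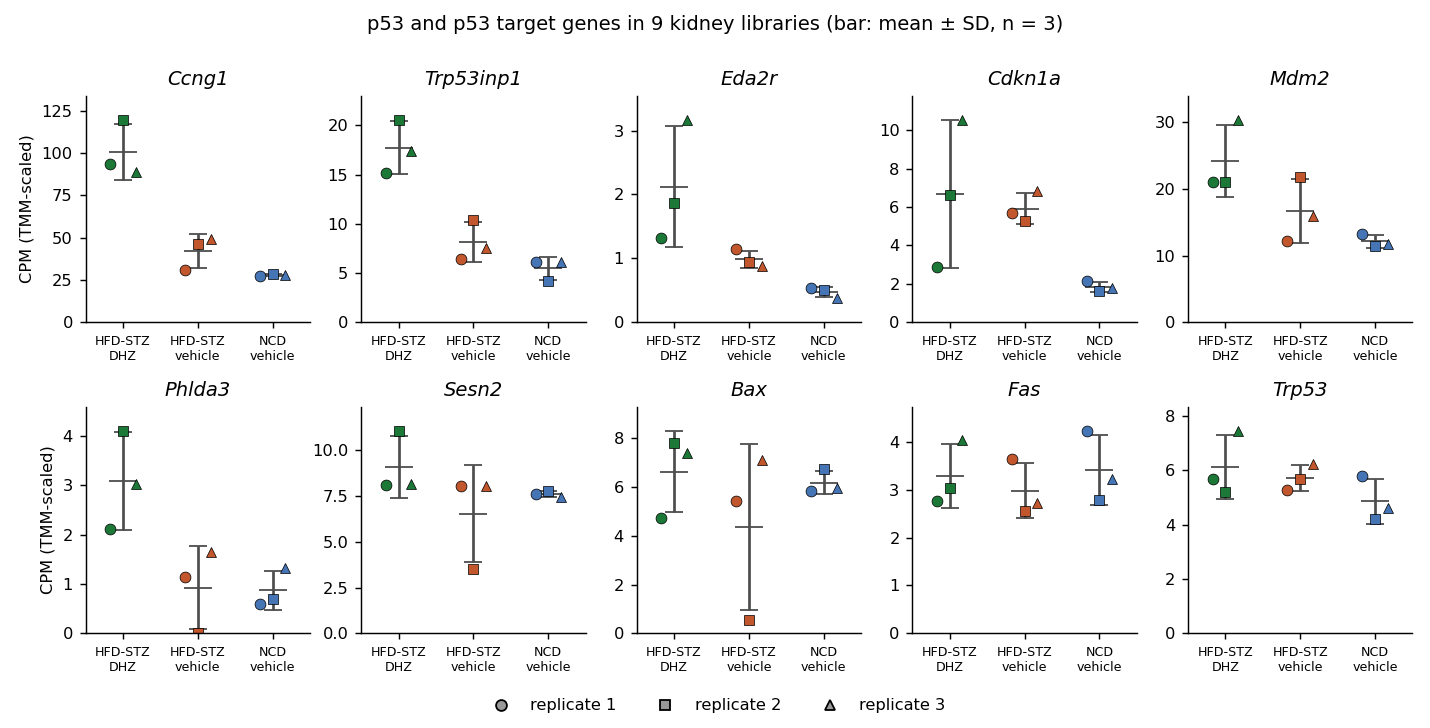
Expression (CPM, TMM-scaled, y axis from 0) of the 10 genes in each library, with HFD-STZ DHZ left, HFD-STZ vehicle in the middle and NCD vehicle right; points are libraries and bars are mean ± SD (n = 3). Ccng1, Trp53inp1 and Eda2r are highest in HFD-STZ DHZ with no overlap, Cdkn1a is high in both HFD-STZ groups apart from HFD-STZ DHZ replicate 1 at 2.85 CPM, and HFD-STZ vehicle replicate 2 lies far below its group for Phlda3, Bax and Sesn2.

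Cyclin G1, the product of Ccng1, brings a phosphatase to Mdm2 and is among the most regularly induced p53 targets in mouse tissues. Ccng1 stood at 93.7, 119.8 and 89.2 CPM in HFD-STZ DHZ replicates 1 to 3, at 30.7, 46.3 and 49.2 CPM in HFD-STZ vehicle and at 27.2, 28.5 and 27.9 CPM in NCD vehicle. All 3 treated libraries lay above all others, and the HFD-STZ vehicle libraries lay above the narrow NCD vehicle range, with replicate 1 the closest to it. The log2 fold change of HFD-STZ DHZ was 1.86 against NCD vehicle (SE 0.24, adjusted p = 0.0083) and 1.26 against HFD-STZ vehicle (SE 0.23, adjusted p = 0.0062).

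Trp53inp1 encodes a nuclear protein that takes part in p53-dependent death and autophagy. Its level was 15.2, 20.6 and 17.4 CPM in HFD-STZ DHZ, 6.45, 10.4 and 7.50 CPM in HFD-STZ vehicle and 6.10, 4.15 and 6.13 CPM in NCD vehicle. The treated libraries again stood above all others, and the lowest HFD-STZ vehicle library lay just above the highest NCD vehicle library. Trp53inp1 rose by a log2 fold change of 1.70 against NCD vehicle (SE 0.24, adjusted p = 0.0083) and of 1.14 against HFD-STZ vehicle (SE 0.24, adjusted p = 0.0091).

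Eda2r, a receptor of the tumour necrosis factor family that binds ectodysplasin A2, was the least abundant of the 10 per kilobase of exon. It had 1.32, 1.87 and 3.17 CPM in HFD-STZ DHZ (45, 121 and 109 counts), 1.14, 0.944 and 0.883 CPM in HFD-STZ vehicle (21, 7 and 22 counts) and 0.535, 0.499 and 0.383 CPM in NCD vehicle (10, 12 and 15 counts). The 3 groups did not overlap, with HFD-STZ vehicle between the others. The log2 fold change of HFD-STZ DHZ was 2.18 against NCD vehicle (SE 0.40, adjusted p = 0.011) and 1.09 against HFD-STZ vehicle (SE 0.39, adjusted p = 0.063). That of HFD-STZ vehicle against NCD vehicle was 1.08 (SE 0.43, adjusted p = 0.61), so of the 3 only the first passed the test.

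Cdkn1a encodes p21, the inhibitor of cyclin-dependent kinases through which p53 halts division. It had 2.85, 6.65 and 10.6 CPM in HFD-STZ DHZ, 5.69, 5.26 and 6.82 CPM in HFD-STZ vehicle and 2.14, 1.62 and 1.79 CPM in NCD vehicle. The treated libraries spread widely, and 1 of them lay below all HFD-STZ vehicle libraries, while all 6 libraries of the HFD-STZ groups exceeded those of NCD vehicle. Cdkn1a rose in HFD-STZ DHZ against NCD vehicle (log2 fold change 1.86, SE 0.39, adjusted p = 0.015). Between HFD-STZ DHZ and HFD-STZ vehicle the log2 difference was 0.16 (95% interval −0.64 to 0.97, adjusted p = 0.78), and it was −0.31 without HFD-STZ DHZ replicate 3.

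Mdm2, both target and inhibitor of p53, stood at 21.1, 21.0 and 30.4 CPM in HFD-STZ DHZ, 12.3, 21.8 and 16.01 CPM in HFD-STZ vehicle and 13.2, 11.5 and 11.7 CPM in NCD vehicle. The treated and healthy groups did not overlap, while HFD-STZ vehicle reached into both. Its log2 fold change in HFD-STZ DHZ was 0.99 against NCD vehicle (SE 0.24, adjusted p = 0.024) and 0.54 against HFD-STZ vehicle (SE 0.24, adjusted p = 0.13).

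The calls of Ccng1, Trp53inp1 and Eda2r between HFD-STZ DHZ and NCD vehicle held whichever of the 9 libraries was left out. Those of the other two did not. Mdm2 lost its call without any 1 of the 6 libraries compared (log2 fold change 0.81 to 1.09, highest adjusted p = 0.076). Cdkn1a lost its call without HFD-STZ DHZ replicate 2 (adjusted p = 0.058), NCD vehicle replicate 1 (0.058) or NCD vehicle replicate 2 (0.051), and the count of the 10 genes called was 3 without each of these 3 libraries. With the replicate number as a block 4 were called. With libraries scaled by total count alone 0 of the 10 and 36 of all genes were called, although the median of the 10 was 1.39.

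Phlda3, Sesn2, Bax, Fas and Trp53 did not pass the edgeR test in any of the 3 comparisons. Phlda3 encodes a small membrane-binding protein that blocks the survival kinase Akt. It had 2.12, 4.10 and 3.02 CPM in HFD-STZ DHZ, 1.14, 0 and 1.65 CPM in HFD-STZ vehicle and 0.588, 0.706 and 1.33 CPM in NCD vehicle. The treated libraries lay above all others. HFD-STZ vehicle replicate 2 had 0 counts, which allows up to 3 counts (counting error only). In that library 3 counts are 0.132 CPM of its unscaled total, but 0.405 CPM on the TMM scale of the values above. The log2 fold change against NCD vehicle was 1.78 (SE 0.58, adjusted p = 0.060), and without HFD-STZ vehicle replicate 2, which shares the fit, it was 1.78 with SE 0.37 and adjusted p = 0.012, so that 6 of the 10 genes were then called. DESeq2 called Phlda3 against NCD vehicle (adjusted p = 0.015) and against HFD-STZ vehicle (adjusted p = 0.032).

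Sesn2 encodes sestrin 2, a stress protein that restrains the growth kinase mTORC1. Its level was 8.08, 11.1 and 8.14 CPM in HFD-STZ DHZ, 8.08, 3.51 and 8.07 CPM in HFD-STZ vehicle and 7.59, 7.77 and 7.46 CPM in NCD vehicle. Apart from the low HFD-STZ vehicle replicate 2 and the higher HFD-STZ DHZ replicate 2, the libraries lay close together. The log2 difference of HFD-STZ DHZ from NCD vehicle was 0.26 (95% interval −0.33 to 0.85, adjusted p = 0.55). In the older annotation Sesn2 overlaps Gm12981, which had 17 to 92 counts, and no source says how shared reads were assigned, so its values are uncertain.

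Bax, the pore-forming protein of mitochondrial cell death, had 4.73, 7.79 and 7.39 CPM in HFD-STZ DHZ, 5.42, 0.539 and 7.10 CPM in HFD-STZ vehicle and 5.83, 6.73 and 5.98 CPM in NCD vehicle. HFD-STZ vehicle replicate 2, with 4 counts, was far below the rest, and the other libraries overlapped. The log2 difference of HFD-STZ DHZ from NCD vehicle was 0.10 (95% interval −1.01 to 1.22, adjusted p = 0.91). Bax overlaps Gm45808, which had 0 counts in all 9 libraries.

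Fas, the death receptor, ranged from 2.76 to 4.04 CPM in HFD-STZ DHZ, from 2.56 to 3.63 CPM in HFD-STZ vehicle and from 2.78 to 4.22 CPM in NCD vehicle, so all groups overlapped. Its log2 difference between HFD-STZ DHZ and NCD vehicle was −0.05 (95% interval −0.63 to 0.53, adjusted p = 0.92). Trp53 ranged from 5.21 to 7.44 CPM in HFD-STZ DHZ, from 5.26 to 6.22 CPM in HFD-STZ vehicle and from 4.20 to 5.77 CPM in NCD vehicle. These groups overlapped as well, with a log2 difference of 0.33 between HFD-STZ DHZ and NCD vehicle (95% interval −0.15 to 0.82, adjusted p = 0.33), so the interval does not reach a doubling of p53 messenger RNA.

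**Figure D2:**
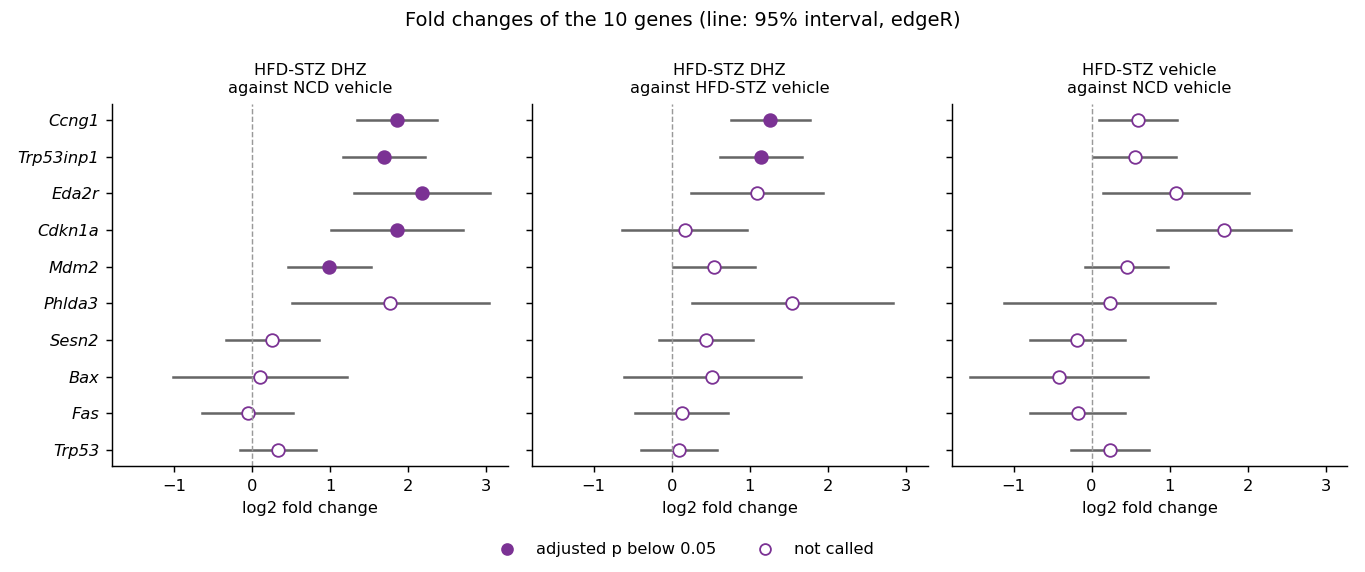
Log2 fold changes (x axis) of the 10 genes (rows) in the 3 comparisons, with HFD-STZ DHZ against NCD vehicle left, HFD-STZ DHZ against HFD-STZ vehicle in the middle and HFD-STZ vehicle against NCD vehicle right; lines are 95% intervals from the edgeR fit and filled points have an adjusted p below 0.05. There are 5 filled points on the left, 2 in the middle (Ccng1 and Trp53inp1) and 0 on the right, where Cdkn1a has the highest estimate at 1.69.

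DHZ and vehicle in diabetic kidneys were compared through HFD-STZ DHZ against HFD-STZ vehicle. Of the 10 genes 2 were called (Ccng1 and Trp53inp1, values above) and both rose. Over all tested genes 22.1% were called in either direction, so 20% of the 10 is near that share. Those called higher were 1726 of all 17179 genes. All 10 estimates were above 0, with a median log2 fold change of 0.53, against 0.04 over all tested genes. The 2 calls held whichever library was left out and under every other setting tried, with adjusted p up to 0.034 for Ccng1 and 0.046 for Trp53inp1. Phlda3 (1.54, SE 0.59, adjusted p = 0.079) and Sesn2 (0.44, SE 0.28, adjusted p = 0.27) had no overlap between these groups either, and 5 of 10 genes were in that state, against 20.9% of all tested genes; for Sesn2 this rests on 8.084 against 8.078 CPM in the nearest libraries (275 and 149 counts), which is within counting error. Leaving out HFD-STZ vehicle replicate 2 added Mdm2 to the calls, 3 in all (0.77, SE 0.23, adjusted p = 0.037), and the estimate of Bax was 0.09 in place of 0.52. With total-count scaling the median of all genes was 0.81 and that of the 10 genes 1.29, and calls over all genes were 832 higher and 56 lower, against 1726 higher and 2070 lower with TMM.

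The diabetic model was read from HFD-STZ vehicle against NCD vehicle. None of the 10 genes passed the edgeR test, where 0.0233% of all tested genes were called higher and 0.0524% in either direction; at an unadjusted p under 0.05, 4 of the 10 were higher, against 3.48% of all tested genes, and DESeq2 called 1 (Cdkn1a). The 4 were Cdkn1a (log2 fold change 1.69, SE 0.40, adjusted p = 0.22), Eda2r (1.08, given above), Ccng1 (0.59, SE 0.23, adjusted p = 0.60) and Trp53inp1 (0.55, SE 0.24, adjusted p = 0.66). The same 4 had no overlap between the groups, against 4.83% of all tested genes that lay higher in this way. For Trp53inp1 this rests on 6.45 against 6.13 CPM in the nearest libraries (119 and 240 counts), which is within counting error. For Ccng1 it rests on 30.7 against 28.5 CPM (567 and 685 counts), which is close to counting error. DESeq2 gave Cdkn1a an adjusted p of 0.017, and over all alternatives its adjusted p ran from 3.7e-05 to 0.80. With total-count scaling, which moved the median of all genes to −0.74, Ccng1 had −0.26 and Trp53inp1 −0.29, so that these estimates change sign, while Cdkn1a had 1.00 and Eda2r 0.42; calls over all genes were then 7 higher and 22 lower, against 4 and 5 with TMM.

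The means of the groups stood in the order HFD-STZ DHZ above HFD-STZ vehicle above NCD vehicle in 7 of the 10 genes (all but Bax, Fas and Sesn2) and in 17.1% of all tested genes. Without HFD-STZ vehicle replicate 2 this was 9 of the 10, all but Fas, and 17.9% of all tested genes. The opposite order was found in 0 of the 10 and in 15.4% of all tested genes. These counts are a description, since the comparisons share libraries.

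Levels were set side by side per kilobase of merged exon. Ccng1 was the most abundant in each group, with 28.7 ± 4.70 CPM per kilobase in HFD-STZ DHZ, 11.97 ± 2.82 in HFD-STZ vehicle and 7.92 ± 0.185 in NCD vehicle (mean ± SD, n = 3 each), and Eda2r the least, with 0.360 ± 0.161, 0.168 ± 0.0227 and 0.0802 ± 0.0134 CPM per kilobase in that order of groups. In NCD vehicle the order below Ccng1 was Bax (3.92), Mdm2 (2.39), Sesn2 (2.19), Fas (1.65), Trp53 (1.20), Trp53inp1 (0.843), Phlda3 (0.561), Cdkn1a (0.521) and Eda2r, all as mean CPM per kilobase. Among these neighbours the libraries of Fas and Trp53, of Trp53inp1 and Phlda3, and of Phlda3 and Cdkn1a overlapped. In HFD-STZ DHZ, Trp53inp1 (2.73 ± 0.417 CPM per kilobase), Phlda3 (1.98 ± 0.638) and Cdkn1a (1.88 ± 1.08) had mean levels above that of Trp53 (1.51 ± 0.291). In NCD vehicle the mean of Trp53 was the higher one. In HFD-STZ vehicle the mean of Cdkn1a (1.67) was already above that of Trp53 (1.41). Those of Trp53inp1 (1.25) and Phlda3 (0.595) were below it there.

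HFD-STZ vehicle replicate 2 was low in the 3 genes of highest GC content. The transcripts of Trp53inp1, Ccng1, Eda2r, Fas and Mdm2 had 38.8% to 46.2% GC, and in these genes replicate 2 differed from the mean of replicates 1 and 3 by −0.29 to 0.64 on the log2 scale. Trp53 (53.3% GC) and Cdkn1a (54.4% GC) had differences of −0.01 and −0.24, within that range. In Sesn2, Phlda3 and Bax, with 58.7% to 63.6% GC, the difference was −1.19, −4.41 (0 counts) and −3.37. Over all genes its median was 0.34 in the 4272 of lowest GC and −0.63 in the 4272 of highest GC. For HFD-STZ DHZ against NCD vehicle the medians over the 4 bins, lowest GC first, were 0.16, 0.15, 0.03 and −0.23. Of the 5 genes called in it, Trp53inp1, Ccng1 and Eda2r lie in the first bin, Mdm2 in the second and Cdkn1a in the last. The part of base composition in the fold changes was not tested.

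**Figure D3:**
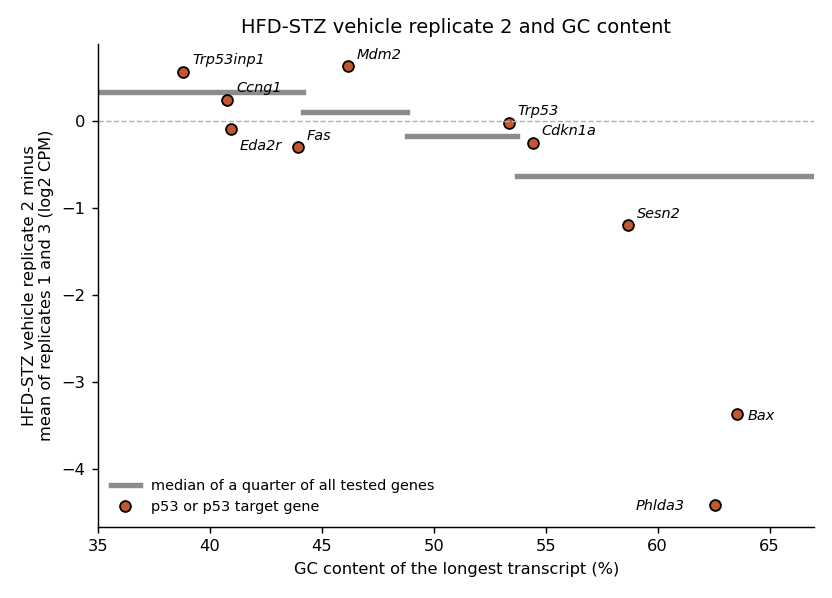
Difference of HFD-STZ vehicle replicate 2 from the mean of replicates 1 and 3 (y axis, log2 CPM) against GC content of the longest transcript (x axis, %) for the 10 genes (points), with the median of all tested genes in 4 equal bins of GC content (grey lines; the outer bins run on beyond the axis). Phlda3, Bax and Sesn2 lie at the right and lowest, at −4.41, −3.37 and −1.19.

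Libraries with and without Y-linked transcripts over 1 CPM were also compared apart, for HFD-STZ DHZ against NCD vehicle. Among libraries with them (1 per group) the log2 ratio of CPM was 1.72 for Ccng1, 1.51 for Trp53inp1, 2.57 for Eda2r, 2.30 for Cdkn1a and 1.20 for Mdm2. Among libraries without them (2 per group) the log2 ratio of mean CPM was 1.92, 1.80, 1.85, 1.48 and 0.86 for the same genes in the same order. Since the 2 groups do not overlap in these 5 genes, the sign of each ratio was fixed beforehand and the values only describe its size. The part of the Y-linked difference was not tested by this split. With a term for Y-linked transcripts in the fit, 6 of the 10 genes were called, the sixth being Phlda3 (1.79, adjusted p = 0.034).

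A further 50 genes of the pathway, listed by role, were examined in the same fit, and 45 of them were tested. Cdkn2a, Trp73, Gtse1, Gls2 and Lif had too few counts, at most 63 in a library. In HFD-STZ DHZ against NCD vehicle 7 rose and 1 fell, which is 17.8% of those tested and near the 13.7% of all genes, and the median log2 fold change was 0.37. Against HFD-STZ vehicle 4 rose and 3 fell, 15.6% of those tested against 22.1% of all genes, with a median of 0.33. In HFD-STZ vehicle against NCD vehicle edgeR and DESeq2 both called 0 of the 45, where edgeR called 0.0524% of all genes. At an unadjusted edgeR p under 0.05, 3 of the 45 were higher, beside 3.48% of all genes, and the median was 0.10.

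Apoptosis targets had 3 of 10 that rose in HFD-STZ DHZ against NCD vehicle, beside 6.31% of all genes called higher. Against HFD-STZ vehicle 2 of 10 (20%) were called, beside 22.1% of all genes in either direction. Both rose, beside 1726 of all 17179 genes called higher. Pmaip1, which encodes the BH3-only protein Noxa, had 3.59, 4.81 and 5.35 CPM in HFD-STZ DHZ, 1.63, 1.08 and 1.36 CPM in HFD-STZ vehicle and 1.07, 2.16 and 1.25 CPM in NCD vehicle. The treated libraries lay above all others. Its log2 fold change was 1.61 against NCD vehicle (SE 0.32, adjusted p = 0.013) and 1.72 against HFD-STZ vehicle (SE 0.33, adjusted p = 0.0070). The death receptor gene Tnfrsf10b (1.59, SE 0.43, adjusted p = 0.032) and Triap1, which encodes a mitochondrial lipid transfer protein that restrains apoptosis (1.04, SE 0.29, adjusted p = 0.037), rose against NCD vehicle. Perp, a p53 target of cell junctions and apoptosis, rose against HFD-STZ vehicle (0.84, SE 0.28, adjusted p = 0.048).

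Of the 12 tested targets for arrest and DNA repair 3 rose against NCD vehicle, beside 6.31% of all genes called higher, and 2 (16.7%) were called against HFD-STZ vehicle, beside 22.1% of all genes. Zmat3, an RNA-binding zinc-finger protein gene, had 5.94, 6.25 and 6.89 CPM in HFD-STZ DHZ, 2.01, 2.97 and 3.61 CPM in HFD-STZ vehicle and 1.66, 3.24 and 2.45 CPM in NCD vehicle. The treated libraries did not overlap with either group, and the 2 other groups overlapped. Its log2 fold change was 1.37 against NCD vehicle (SE 0.29, adjusted p = 0.016) and 1.15 against HFD-STZ vehicle (SE 0.30, adjusted p = 0.019). Psrc1, a gene of the mitotic spindle, rose against NCD vehicle (2.78, SE 0.66, adjusted p = 0.022), with 3.49 CPM in HFD-STZ DHZ replicate 3 and 0.823 and 0.987 in the other two, and it had 1.85 without replicate 3. Replicate 3 was also the HFD-STZ DHZ library with the highest sum of proliferation markers (28.0 CPM), and their part in the value was not tested. Rrm2b, a ribonucleotide reductase subunit for DNA repair, rose by 0.77 (SE 0.21, adjusted p = 0.032), with uncertain counts since a pseudogene and an antisense gene overlap it. Ercc5, a nuclease of nucleotide excision repair, fell against HFD-STZ vehicle (−0.77, SE 0.22, adjusted p = 0.029).

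In the group for metabolism, autophagy and secreted factors 2 of 13 (15.4%) were called against NCD vehicle, beside 13.7% of all genes, and 1 of 13 (7.69%) against HFD-STZ vehicle, beside 22.1%. Fdxr, which belongs to the chain that passes electrons to mitochondrial cytochromes and is a p53 target in humans, was lowest in the treated group. It had 3.82, 3.30 and 2.85 CPM in HFD-STZ DHZ, 7.86, 5.13 and 8.59 CPM in HFD-STZ vehicle and 9.57, 6.15 and 6.75 CPM in NCD vehicle. All treated libraries lay below all others, and Fdxr fell against NCD vehicle (−1.17, SE 0.26, adjusted p = 0.018) and against HFD-STZ vehicle (−1.13, SE 0.26, adjusted p = 0.012). The thiamine transporter gene Slc19a2 rose against NCD vehicle (1.46, SE 0.34, adjusted p = 0.021). Of the 10 tested regulators of p53, 0 were called by edgeR against NCD vehicle, beside 13.7% of all genes, with 2 higher at an unadjusted p under 0.05, beside 2714 of all 17179 genes. The lowest p belonged to Rchy1, a ubiquitin ligase (0.62, SE 0.21, adjusted p = 0.067), which DESeq2 called. Against HFD-STZ vehicle 2 of the 10 regulators (20%) were called, beside 22.1% of all genes. Ppm1d, the phosphatase that switches p53 signalling off, rose (0.67, SE 0.21, adjusted p = 0.042) and the acetyltransferase gene Ep300 fell (−0.78, SE 0.25, adjusted p = 0.043), both close to the 0.05 threshold.

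Each of these 12 further genes lost a call in at least 1 comparison without at least 1 library. The call of Pmaip1 against HFD-STZ vehicle held whichever library was left out and under every other setting tried. Without HFD-STZ DHZ replicate 1 or 2 or NCD vehicle replicate 1 the count called against NCD vehicle was 0. It was 4 without NCD vehicle replicate 2 or 3 and 5 without HFD-STZ DHZ replicate 3. Against HFD-STZ vehicle the count was 2 and 1 without HFD-STZ DHZ replicates 1 and 2, 3 without HFD-STZ vehicle replicate 1, and 4 without NCD vehicle replicate 2 or 3.

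**Figure D4:**
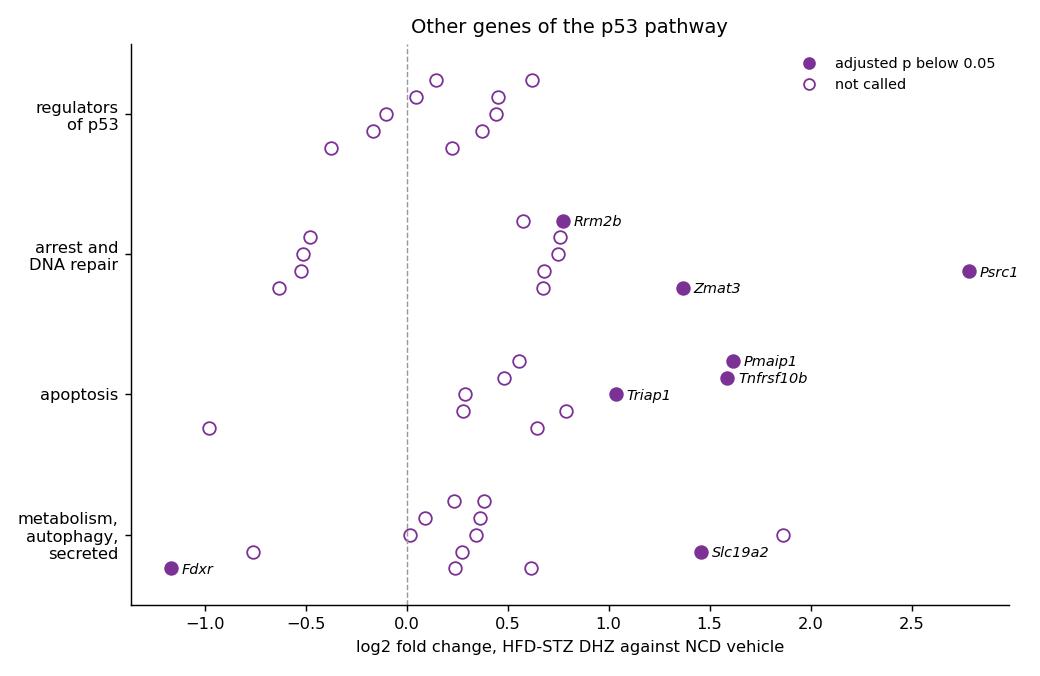
Log2 fold changes (x axis) of the 45 tested pathway genes in HFD-STZ DHZ against NCD vehicle, in rows by role (height within a row only separates the points); filled, named points have an adjusted p below 0.05 (edgeR). The 7 filled points to the right of 0 run from Rrm2b at 0.77 to Psrc1 at 2.78, and Fdxr is the filled point on the left at −1.17.

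The 5 genes with the pattern most like that of Cdkn1a, by Pearson's r of log2 CPM over the 9 libraries among 10206 genes, were Slc25a25 (r = 0.92), Igtp (0.90), Pklr (0.89), Tmem171 (0.88) and Bdnf (0.87). Slc25a25, a mitochondrial carrier of adenine nucleotides, had 14.6, 16.1 and 36.3 CPM in HFD-STZ DHZ, 17.7, 11.9 and 31.1 CPM in HFD-STZ vehicle and 7.54, 3.95 and 3.66 CPM in NCD vehicle. As with Cdkn1a, replicate 3 was the highest in both HFD-STZ groups and both groups lay above NCD vehicle. For the mean of the 10 genes the leading names were Nsd2 (r = 0.96), Atp6v1g1 (0.96), Tubb2b (0.95), Zdhhc3 (0.94) and Fga (0.94). The points share library depth and group, so these values only describe likeness.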

How the data were processed

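Gene expression was measured in 9 libraries of whole kidney. The table that was deposited holds raw counts per gene for 55359 Ensembl genes, with 0 columns of other samples. The submitters' processing notes name STAR, Trim Galore and FastQC and the build GRCm39 (mm39), and per the labels' protocols the kit was stranded and captured polyadenylated RNA; no source gives versions, the counting program or the annotation release. Titles define the groups, since the treatment field names the compound for all 9. Symbols matched 94.1% of identifiers by Ensembl ID (99.5% of tested genes). The GENCODE M21 annotation at hand is of an older build and gave only gene class, exon length, overlaps and transcript GC.

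In R 4.3.3, edgeR 4.0.16 was run with filterByExpr, TMM and 1 robust quasi-likelihood fit of all 9 libraries (6 residual degrees of freedom, common dispersion 0.0893), two-sided F-tests and Benjamini-Hochberg adjustment over 17179 genes; every adjusted p is of this test unless DESeq2 (1.42.0) is named. Called means an adjusted p below 0.05. The standard error comes from the F statistic. The script was tested on simulated data. In the likeness ranking genes had at least 1 as mean log2 CPM, with a prior count of 2. All 10 members are named; of the other pathway genes those called, up to 4 per role and comparison, and otherwise the one with the lowest p. The members, lists and alternatives were chosen with earlier results of these data known. Replicates of a group differed by more than sampling noise (chi-square per degree of freedom 14.4 to 315). A value of 1 library has no replicate check. One kidney marker of the planned list is not reported here.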

Additional observations from a re-analysis of the deposited data

How the results depend on the processing

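Counts of called genes are given here in the order HFD-STZ DHZ against HFD-STZ vehicle, HFD-STZ DHZ against NCD vehicle and HFD-STZ vehicle against NCD vehicle. Of all genes, 3796, 2352 and 9 were called. Leaving out 1 library in turn gave 1149 to 4086, 112 to 3706 and 2 to 28. Of the 10 genes 2, 5 and 0 were called, and leaving out 1 library gave 2 to 3, 3 to 6 and 0. Of the other 45, 7, 8 and 0 were called, and leaving out 1 library gave 1 to 8, 0 to 12 and 0. Scaling by total count alone gave 888, 36 and 29 of all genes, 3, 0 and 0 of the 10 and 1, 0 and 0 of the 45. It also turned the estimate of Ep300 in HFD-STZ DHZ against HFD-STZ vehicle to 0.13 from −0.78, and it moved the median of all genes in that comparison to 0.81. With the replicate number as a block the counts were 2159, 772 and 2 of all genes, 2, 4 and 0 of the 10 and 3, 4 and 0 of the 45. Libraries with the same number did not all deviate together (correlation of deviations −0.41 to 0.22). With 3 libraries per group these correlations cannot decide whether the numbers pair the samples. Fitting only the 2 groups compared gave 2860, 3981 and 3 of all genes and 4, 12 and 0 of the 45. DESeq2 gave 4676, 3464 and 125 of all genes, 3, 6 and 1 of the 10 and 8, 13 and 0 of the 45. Without a filter on low counts there were 4633, 3380 and 425, then 3, 6 and 1, then 5, 14 and 1. A term for Y-linked transcripts gave 3660, 3617 and 42, then 4, 6 and 0, then 6, 12 and 0. The cause of these shifts was not tested. Median-of-ratios factors, and leaving out mitochondrial genes and unprocessed pseudogenes, kept each count within 1.5 times.

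Depth limits the low genes most: 3 counts are 0.0631 to 0.199 CPM of a library's unscaled total. On the TMM scale 3 counts are 0.405 CPM in HFD-STZ vehicle replicate 2. Eda2r and Phlda3, and in HFD-STZ vehicle replicate 2 also Bax, Fas and Sesn2, had fewer than 30 counts in some libraries.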
